A study of Mus musculus with 8 samples.

Results

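T cell receptor V and C genes were described in FoxP3+ regulatory T cells of bone marrow (BM-Treg, 4 libraries) and spleen (SP-Treg, 4 libraries). Genes were chosen by their symbol alone, as V or numbered C genes of the alpha, beta, gamma and delta families plus Trac, and 94 of the 38215 genes listed met this rule. They were 64 alpha V genes, 21 beta V genes, 5 delta V genes, the gamma V gene Trgv2 and the constant genes Trac, Trbc1 and Trbc2. Trdc, the constant gene of the delta chain, was not analysed here.

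All 8 libraries were labelled C57Bl/6 and came from naive B6.FoxP3-GFP mice of 12 weeks, in which a green fluorescent reporter marks cells that express FoxP3. Both tissues came from animals without treatment. BM-Treg replicates 1 to 3 were labelled batch 1 and female, whereas BM-Treg replicate 4 and all of SP-Treg were labelled batch 3 and male. The paper's methods describe its mice as female unless stated otherwise, which the male label does not match. Batch and sex cannot be told apart, and tissue can be told apart from them only through BM-Treg replicate 4. The difference between this library and SP-Treg is given as the value within batch 3, with no test. The titles of the SP-Treg libraries carry ranges of numbers, and the sources used here do not say whether animals were pooled. In bulk RNA, fewer cells of a type and less RNA per cell cannot be told apart.

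A T cell receptor chain is made when a V segment is joined to a J segment, with a D segment between them in the beta and delta chains, and the joined exon is spliced to a constant gene. Each T cell clone keeps its joined V segments, so that the V genes read in a population reflect which clones it holds and how much receptor RNA they carry. Most Treg carry an alpha and a beta chain, and the delta V genes lie within the alpha locus, where some V segments can join to either chain.

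Expected counts on genes, which are estimated read numbers, summed to between 12427136 and 21921252 per library, and the 94 genes held 0.176% to 0.239% of them. Between 3572 and 7595 counts fell on alpha V genes and between 1259 and 3449 on beta V genes in a library. Replicates of a tissue differed by more than sampling noise, with a chi-square per degree of freedom of 14.6 to 88.5, so that none looked like a duplicate of another. The Treg markers Foxp3, Il2ra, Ctla4, Ikzf2, Cd4 and Tnfrsf18 were present in every library, with a summed level of 6359 to 7332 CPM (counts scaled to a common library size) in BM-Treg and 6504 to 7400 CPM in SP-Treg, and 0 of these 6 genes passed the test between tissues.

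The V segments that the results turn on can be told apart by their 3′ ends. The last 120 bases of 4 beta V exons are shown for the genes that changed between the tissues, Trbv1 and Trbv16, and for Trbv13-2 and Trbv2, which were used at high shares in both. Capitals mark the stretch from the first in-frame cysteine codon of the last 30 bases to the end of the V exon, where the antigen-binding CDR3 loop begins. Sequences are from GENCODE M21 transcripts on the GRCm38 build, plus strand.
Trbv1, chr6:40891766-40891885: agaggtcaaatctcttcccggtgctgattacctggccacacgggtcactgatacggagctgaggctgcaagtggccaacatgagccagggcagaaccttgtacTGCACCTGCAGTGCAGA
Trbv16, chr6:41152111-41152230: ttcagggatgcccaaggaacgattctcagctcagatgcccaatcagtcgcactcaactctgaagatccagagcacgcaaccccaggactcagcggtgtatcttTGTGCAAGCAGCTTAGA
Trbv13-2, chr6:41121713-41121832: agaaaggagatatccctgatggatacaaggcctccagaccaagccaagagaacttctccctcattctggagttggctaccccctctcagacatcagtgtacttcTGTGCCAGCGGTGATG
Trbv2, chr6:41047876-41047995: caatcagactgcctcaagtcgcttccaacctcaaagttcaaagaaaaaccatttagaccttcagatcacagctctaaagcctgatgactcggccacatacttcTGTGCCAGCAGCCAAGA

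The beta constant genes are near copies, so that many reads fit either of them. Of their 518 coding bases, 23 differed (95.6% identity), and in the first exon of 375 bases only 1 differed. The third exon, of 107 bases, is shown because it held 15 of these differences, and capitals mark the bases at which Trbc1 and Trbc2 differ. Of windows as long as a read, 80 bases, 33.4% in Trbc1 were also found in another gene, and 36.4% in Trbc2.
Trbc1, chr6:41539229-41539335: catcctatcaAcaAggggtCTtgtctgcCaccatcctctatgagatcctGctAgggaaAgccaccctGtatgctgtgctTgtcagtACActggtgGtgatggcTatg
Trbc2, chr6:41547772-41547878: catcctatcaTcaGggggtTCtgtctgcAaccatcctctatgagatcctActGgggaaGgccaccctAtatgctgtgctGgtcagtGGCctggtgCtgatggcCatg

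The constant genes were high in every library and did not pass the test between BM-Treg and SP-Treg. Trac (chr14:54220521-54223097), the constant part of the alpha chain, was at 443, 556, 674 and 656 CPM in BM-Treg replicates 1 to 4, and at 508, 557, 472 and 479 CPM in SP-Treg replicates 1 to 4. The BM-Treg values spanned those of SP-Treg. The log2 fold change of BM-Treg over SP-Treg was 0.19 (SE 0.13), with an adjusted p of 0.41, and 0.38 within batch 3.

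Trbc2 (chr6:41546730-41548181) was at 732, 850.3, 934 and 975 CPM in BM-Treg replicates 1 to 4, and at 627, 730.0, 768 and 783 CPM in SP-Treg replicates 1 to 4. Only the lowest BM-Treg library lay among the SP-Treg libraries. Its log2 fold change was 0.24 (SE 0.12, adjusted p = 0.228), and 0.42 within batch 3. Trbc1 (chr6:41538218-41539347) was at 192, 232, 233 and 228 CPM in BM-Treg, and at 137, 173, 225 and 216 CPM in SP-Treg, with a log2 fold change of 0.21 (SE 0.14, adjusted p = 0.402) and 0.28 within batch 3. Trbc1 took 20.3% ± 1.08 of the beta constant counts in BM-Treg against 20.3% ± 2.19 in SP-Treg (SD, n = 4).

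Levels of different genes were compared per length, as FPKM. Trbc1 and Trbc2 together were at 2498 ± 213 FPKM in BM-Treg against 2027 ± 160.4 FPKM in SP-Treg (SD, n = 4). Trac was at 1744 ± 275 and 1477 ± 145 FPKM. The summed FPKM of the alpha V genes was 1043 ± 69.7 in BM-Treg and 962 ± 92.9 in SP-Treg, and that of the beta V genes was 522 ± 70.1 and 398 ± 28.9. With the alpha V genes that the files list under other symbols, which GENCODE M21 names by identifier, the alpha V sum was 1703 ± 180.3 and 1545 ± 129 FPKM. The beta V genes thus summed to less than their constant genes on this scale, while the alpha V sum was close to Trac once those genes were included.

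Of the 94 genes, 78 passed the filter on low counts and were tested with edgeR, and 2 rose in BM-Treg while 0 fell, at a Benjamini-Hochberg adjusted p threshold of 0.05 over all genes tested. This is 2.56% of the receptor genes tested, against 8.75% of all genes tested (3.72% higher and 5.02% lower in BM-Treg). Both were beta V genes, Trbv1 and Trbv16, or 11.8% of the 17 beta V genes tested. Of the 57 alpha V genes tested, 0 were called, and 2 had an unadjusted p under 0.05. The 16 genes that were not tested were 7 alpha V, 4 beta V and 4 delta V genes and Trgv2.

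The log2 fold change of the alpha V genes tested ranged from -1.35 to 1.05, with a median of 0.06, and was positive in 34 and negative in 23. For the beta V genes tested it ranged from -0.45 to 0.997, with a median of 0.24, and was positive in 11 and negative in 6. Outside the symbol rule, the beta V genes that GENCODE M21 names Trbv12-1 and Trbv12-2 had -0.93 and 0.20 (edgeR adjusted p = 0.159 and 0.739). The median over all genes tested was -0.01. Beta V counts summed to 122, 144, 155 and 120.3 CPM in BM-Treg replicates 1 to 4, and to 91.0, 106, 109 and 118 CPM in SP-Treg replicates 1 to 4. The lowest BM-Treg library lay just above the highest SP-Treg library, and the difference between the means, 29.3 CPM, was 14.2 CPM within batch 3. Alpha V counts summed to 281 to 342 CPM in BM-Treg and 259 to 331 CPM in SP-Treg, and these ranges overlapped.

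Set against the constant genes, V gene counts did not separate the tissues. Per 100 Trac counts there were 63.4, 55.7, 50.7 and 46.8 alpha V counts in BM-Treg replicates 1 to 4, and 55.5, 59.4, 64.8 and 54.1 in SP-Treg replicates 1 to 4. Per 100 counts of Trbc1 and Trbc2 there were 13.2, 13.3, 13.3 and 10.001 beta V counts in BM-Treg and 11.9, 11.8, 10.98 and 11.8 in SP-Treg. In both ratios BM-Treg replicate 4 was the lowest library, and the mean differences of -4.29 and 0.8287 were -11.6 and -1.62 within batch 3.

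**Figure D1:**
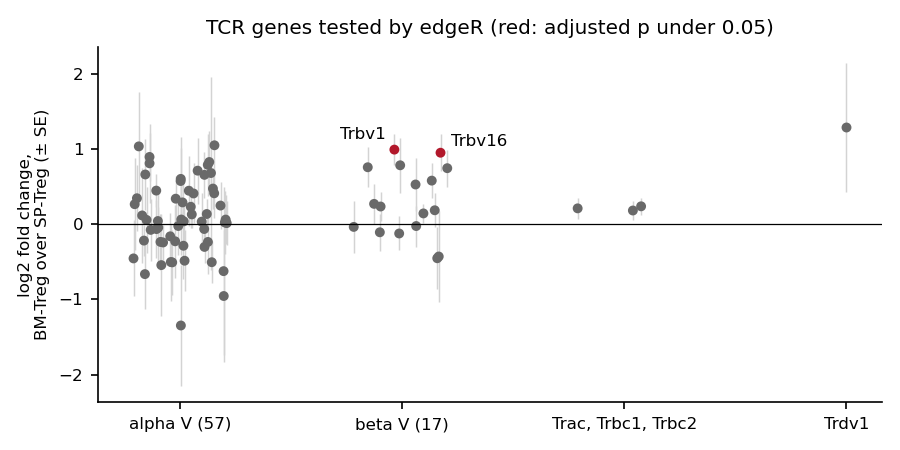
Log2 fold change of BM-Treg over SP-Treg (vertical axis, bars ± SE, n = 4 libraries per tissue) for the 78 receptor genes tested by edgeR, grouped by family along the horizontal axis. Red marks an adjusted p under 0.05, which Trbv1, at 0.997, and Trbv16, at 0.96, reached.

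Trbv1 (ENSMUSG00000076461, chr6:40891296-40891885), the first V gene of the beta locus, encodes the segment also called Vβ2. It was at 14.1, 21.3, 19.5 and 13.9 CPM in BM-Treg replicates 1 to 4, and at 6.00, 8.93, 10.3 and 8.77 CPM in SP-Treg replicates 1 to 4. Every BM-Treg library lay above every SP-Treg library. The means were 17.2 ± 3.76 CPM (SD, n = 4) and 8.50 ± 1.81 CPM, with a log2 fold change of 0.997 (SE 0.20, adjusted p = 0.00714). No window of 80 bases in Trbv1 occurred in another gene, which held for 19 of 20 beta V genes looked up. The call held whichever of the 8 libraries was left out (adjusted p at most 0.0331). Within batch 3 the log2 fold change was 0.68, and with batch as a term in the model it was 0.70 and lost its call (adjusted p = 0.239).

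Trbv16 (ENSMUSG00000076473, chr6:41151791-41152225), the segment also called Vβ11, was at 8.12, 9.55, 13.6 and 6.62 CPM in BM-Treg replicates 1 to 4. In SP-Treg replicates 1 to 4 it was at 3.98, 5.21, 4.04 and 6.02 CPM. The groups did not overlap, although BM-Treg replicate 4 lay close to the highest SP-Treg library. The means were 9.46 ± 2.98 CPM (SD, n = 4) and 4.81 ± 0.984 CPM, with a log2 fold change of 0.96 (SE 0.24, adjusted p = 0.0249). It was 0.42 within batch 3. With batch as a term it was 0.44 (adjusted p = 0.532). The call was also lost without BM-Treg replicate 2, BM-Treg replicate 3, SP-Treg replicate 1 or SP-Treg replicate 3, with log2 fold changes of 0.95, 0.74, 0.89 and 0.88.

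Trbv20 and Trbv31 were the other beta V genes whose CPM did not overlap between the tissues, and neither passed the test. This made 4 of the 17 beta V genes tested, or 23.5%, all higher in BM-Treg, against 8.34% of all genes tested that lay higher in every BM-Treg library. Trbv20 (chr6:41188273-41188977) was at 6.55, 8.39, 7.30 and 5.87 CPM in BM-Treg and 4.12, 2.61, 5.36 and 4.42 CPM in SP-Treg, with a log2 fold change of 0.75 (SE 0.25, adjusted p = 0.0758) and 0.46 within batch 3. Trbv31 (chr6:41557691-41558371) lies downstream of Trbc2 in the opposite orientation and is joined by inversion. It was at 3.84, 5.59, 6.08 and 4.95 CPM in BM-Treg and 2.10, 3.16, 3.22 and 3.41 CPM in SP-Treg, with a log2 fold change of 0.76 (SE 0.27, adjusted p = 0.0914) and 0.65 within batch 3. These genes were named after their values were seen.

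**Figure D2:**
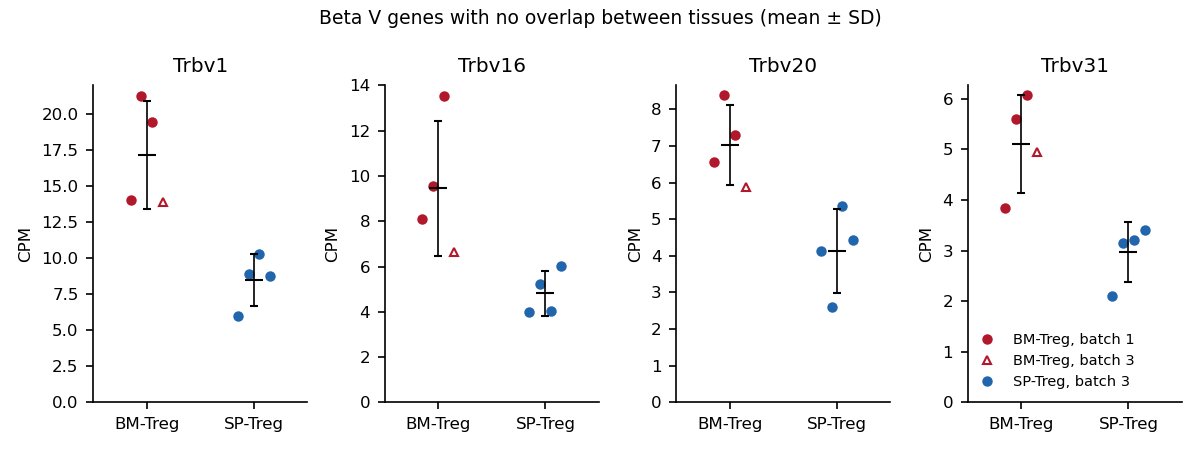
CPM (vertical axes, from 0) of Trbv1, Trbv16, Trbv20 and Trbv31 in each library, with the mean and SD of the 4 libraries of each tissue and the batch 3 BM-Treg library as an open triangle. All BM-Treg points lie above all SP-Treg points in each panel, and the open triangle, at 6.62 CPM for Trbv16, lies close to the highest SP-Treg point, at 6.02 CPM.

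V gene usage was then taken as the share of each gene in the summed counts of its family, which sets aside how much receptor RNA a library held. Trbv13-2 (chr6), the segment also called Vβ8.2, led in all 8 libraries. It took 19.6%, 16.5%, 15.7% and 19.7% of beta V counts in BM-Treg replicates 1 to 4, and 20.1%, 19.4%, 22.7% and 18.3% in SP-Treg replicates 1 to 4. These shares overlapped, and its CPM gave a log2 fold change of 0.15 (adjusted p = 0.543). The 6 genes with the largest mean share over the 8 libraries took 61.3% of beta V counts in BM-Treg and 61.1% in SP-Treg. When each tissue was ranked on its own, 5 of its 6 leading genes were also among the other tissue's 6.

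Trbv1 held rank 2 in BM-Treg and rank 4 in SP-Treg. It took 11.6%, 14.8%, 12.5% and 11.6% of beta V counts in BM-Treg replicates 1 to 4, and 6.59%, 8.40%, 9.46% and 7.44% in SP-Treg replicates 1 to 4. The shares did not overlap, with means of 12.6% ± 1.52 (SD, n = 4) and 7.97% ± 1.23. The BM-Treg interval that reached lowest (95% Wilson interval, for counting error only) was 10.01% to 13.3%, in replicate 4. The highest SP-Treg share, in replicate 3, had an interval of 7.99% to 11.2%, which overlapped it. When edgeR was run with the beta V sum as the library size, Trbv1 was the only beta V gene called, with a log2 fold change of 0.66 (SE 0.21, adjusted p = 0.0262), under a setting in which 19.8% of all genes were called.

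Trbv16 took 6.66%, 6.63%, 8.73% and 5.51% of beta V counts in BM-Treg and 4.37%, 4.90%, 3.71% and 5.10% in SP-Treg, again without overlap. Against the beta V sum its log2 fold change was 0.61 (adjusted p = 0.0778). Trbv31 took 3.15%, 3.88%, 3.91% and 4.11% in BM-Treg and 2.30%, 2.97%, 2.95% and 2.89% in SP-Treg. With Trbv1, these were the 3 of 18 beta V genes of at least 0.5% whose shares did not overlap, or 16.7%, and all were higher in BM-Treg. By CPM, 8.34% of all genes tested lay higher in every BM-Treg library, and 15.9% did not overlap in either direction.

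Among beta V genes with a lower mean share in BM-Treg, Trbv2 (Vβ4) differed most, at 8.12% ± 1.73 (SD, n = 4) against 11.1% ± 2.77, and its shares overlapped. Its CPM gave a log2 fold change of -0.12 (adjusted p = 0.798). Trbv19 (Vβ6) took 4.45% and 6.05% of beta V counts in BM-Treg and SP-Treg (log2 fold change -0.10, adjusted p = 0.84). The other leading genes were closer, with Trbv5 (Vβ1) at 9.16% and 7.77%, Trbv15 (Vβ12) at 7.74% and 8.20%, and Trbv3 at 5.77% and 5.87%. Their adjusted p values were 0.134, 0.502 and 0.586. Trbv5 overlaps a noncoding RNA gene, and 75.1% of its 80-base windows were also found there.

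**Figure D3:**
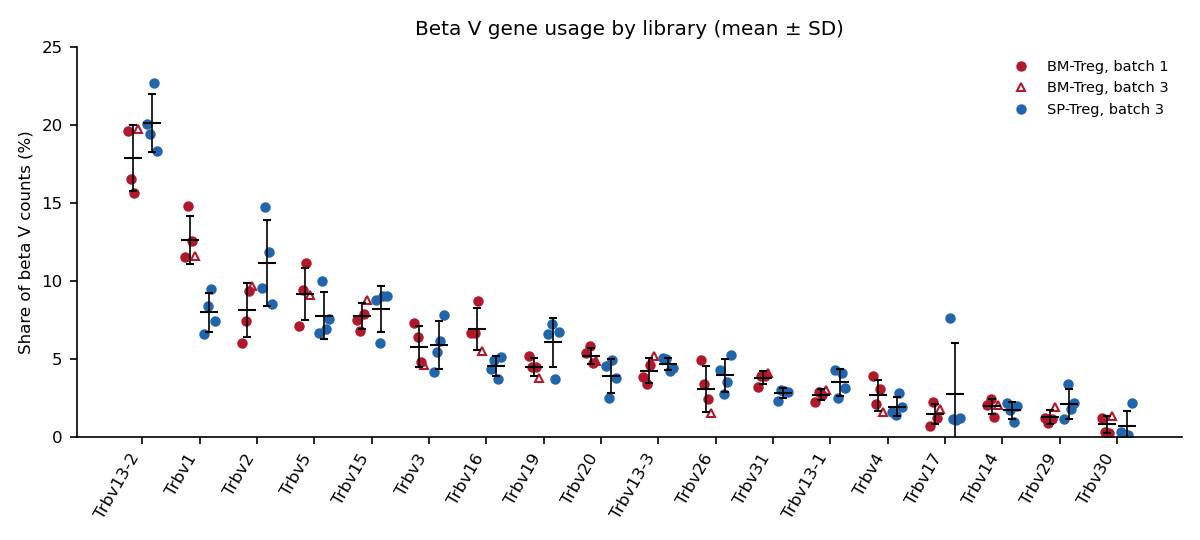
Share of beta V counts (vertical axis, percent) of the 18 beta V genes with a mean share of at least 0.5%, in order of mean share, with a point per library, the batch 3 BM-Treg library as an open triangle, and mean ± SD (n = 4 per tissue). Trbv13-2 leads in both tissues, Trbv1 stands apart between them, and SP-Treg replicate 1 holds a single high value for Trbv17, 7.63%.

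The evenness of beta V usage overlapped between the tissues. The effective number of V genes, which is the number of equally used genes that would give the same Shannon entropy, was 13.8 ± 0.265 for the beta family in BM-Treg against 13.6 ± 0.897 in SP-Treg (SD, n = 4). The distance between 2 libraries, taken as the share of counts that would have to move between V genes to make them equal, averaged 15.4% between tissues and 12.4% within them. This excess did not hold within batch 3, where the distance of BM-Treg replicate 4 to the SP-Treg libraries was 0.923 percentage points below that among the SP-Treg libraries.

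Counted gene by gene, usage of alpha V genes differed as much between libraries of a tissue as between tissues. It was spread over more genes than in the beta family, with a median share of 1.01% and an effective number of 40.1 ± 2.97 genes in BM-Treg against 36.7 ± 1.85 in SP-Treg (SD, n = 4), which overlapped between libraries. The distance between libraries of different tissues averaged 21.3%, and that within tissues 21.4%, with 18.4% among BM-Treg and 24.4% among SP-Treg. Of 63 alpha V genes looked up, 51 had windows of 80 bases that were also found in another gene, against 1 of 20 beta V genes. The division of reads between copies therefore enters these alpha V distances, and its part in them was not tested. The files list another 40 alpha V genes under symbols outside the rule, by their identifiers in GENCODE M21, and these held 31.4% to 37.1% of all alpha V counts in a library, against 4.04% to 8.95% for 2 beta V genes. Shares given here are of the genes within the rule. The 6 alpha V genes with the largest mean share over the 8 libraries took 32.9% of alpha V counts in BM-Treg and 35.4% in SP-Treg.

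Trav7d-2 (chr14:53390570-53391142), which GENCODE M21 names Trav7-2, led in 5 of the 8 libraries, Trav7-4 in 2 and Trav9-1 in 1. Trav7d-2 took 6.02%, 7.19%, 10.7% and 8.73% of alpha V counts in BM-Treg replicates 1 to 4, and 13.9%, 7.63%, 10.95% and 10.1% in SP-Treg replicates 1 to 4. The mean shares differed by 2.50 percentage points, the largest difference of any alpha V gene, and the libraries overlapped (log2 fold change of CPM -0.30, adjusted p = 0.439). All of its 80-base windows also occurred in another V gene, which GENCODE M21 itself names Trav7d-2. That gene was not found among the receptor genes listed here, and whether reads were divided with it was not tested.

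Mean shares in BM-Treg and SP-Treg were 5.96% and 7.21% for Trav7-4, and 5.81% and 5.48% for Trav9-1. They were 5.21% and 4.03% for Trav6-6, 4.24% and 4.30% for Trav12-2, and 3.57% and 3.70% for Trav13-1. Trav16n was at 2.23% and 3.20%. None of these passed the test. The gene listed as Trav6-6 is named Trav6d-6 by GENCODE, which gives the symbol Trav6-6 to another gene outside the rule. All windows as long as a read in the listed gene also occurred in another V gene. Its share therefore rests on how reads were divided between copies. The listed gene held 195 counts in BM-Treg replicate 2 and the other gene 533, against 585 and 319 in BM-Treg replicate 3. Trav9-4 took 2.90%, 3.57%, 5.005% and 4.52% in BM-Treg and 1.40%, 2.82%, 3.70% and 2.60% in SP-Treg, with overlap and a log2 fold change of 0.66 (adjusted p = 0.217).

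Trav13-2 (chr14:53634829-53635398) was the only alpha V gene of at least 0.5% whose shares did not overlap, or 2.04% of 49 such genes, a smaller percentage than the 8.34% of all genes tested whose CPM was higher in every BM-Treg library. It was at 3.49, 4.57, 4.53 and 3.83 CPM in BM-Treg and 1.11, 3.18, 2.19 and 2.23 CPM in SP-Treg, and the lowest BM-Treg library lay above the highest SP-Treg library. The log2 fold change was 0.90 (SE 0.33, adjusted p = 0.104) and 0.70 within batch 3. Only 2.89% of its 80-base windows occurred elsewhere. It was named after its values were seen.

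When V genes were grouped by subgroup, which puts near copies together, the Trav7 subgroup led with 21.8% ± 2.53 of alpha V counts in BM-Treg against 26.8% ± 3.61 in SP-Treg (SD, n = 4), and Trav6 followed with 14.8% and 12.8%. The shares of 0 subgroups separated the tissues. The 7 alpha V genes whose symbols mark them as able to join to delta segments took 7.32%, 10.5%, 7.55% and 8.48% of alpha V counts in BM-Treg replicates 1 to 4, and 5.90%, 7.04%, 6.39% and 6.70% in SP-Treg replicates 1 to 4. These sums did not overlap, and the difference within batch 3 was 1.97 percentage points. Of the 6 of these genes that were tested, 0 passed, and Trav21-dv12, named after its values were seen, had the largest log2 fold change, 1.05 (adjusted p = 0.101). The 5 alpha V genes that GENCODE M21 lists as pseudogenes took 2.01% ± 0.647 and 1.79% ± 0.135.

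Along the locus, alpha V genes near the J segments can be joined in a first rearrangement, and more distant ones in later rearrangements. The 21 of 64 alpha V genes nearest to the J segments, from Trav12-3 to Trav21-dv12, took 30.1%, 29.9%, 29.9% and 29.97% of alpha V counts in BM-Treg replicates 1 to 4. In SP-Treg replicates 1 to 4 they took 23.2%, 25.8%, 23.0% and 29.0%. The BM-Treg libraries lay within 1 percentage point of each other and above every SP-Treg library, while SP-Treg replicate 4 lay close to them. This set holds 5 of the 7 genes that can also join to delta segments. The difference of the means, 4.72 percentage points, was 4.73 within batch 3, and 6.20 over all alpha V genes that GENCODE M21 names. The middle genes took 48.6% and 51.4% in BM-Treg and SP-Treg, and the distal genes 21.4% and 23.3%, with overlap. With the alpha V genes split instead at the midpoint of their order, the part nearer to the J segments took 61.5% and 56.6%. These shares overlapped between libraries.

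**Figure D4:**
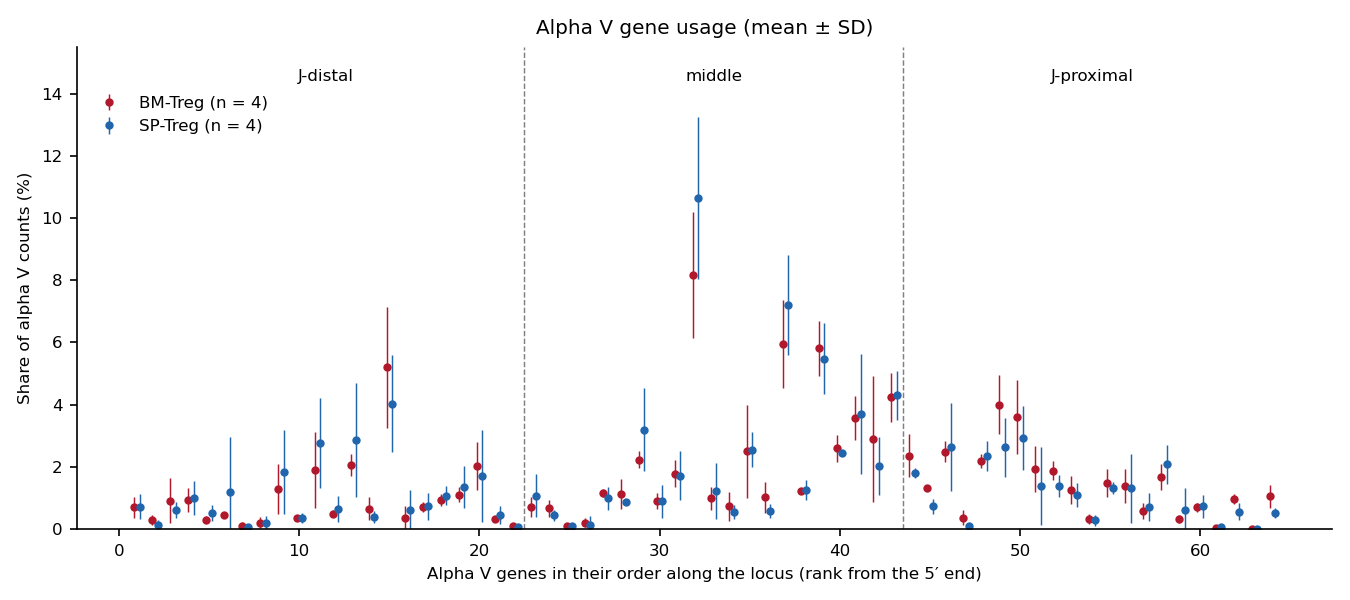
Mean share of alpha V counts (vertical axis, percent, bars ± SD, n = 4 libraries per tissue) of the 64 alpha V genes in their order along the locus (horizontal axis, rank). Dashed lines part the J-distal, middle and J-proximal genes, and the highest points in both tissues, 8.16% and 10.7%, belong to Trav7d-2 in the middle.

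V genes used by unconventional alpha beta T cells did not pass the test between the tissues. Trav1, used by mucosal-associated invariant T cells, was at 1.89, 2.05, 1.13 and 3.44 CPM in BM-Treg and 2.10, 1.26, 3.96 and 1.23 CPM in SP-Treg (log2 fold change -0.04, adjusted p = 0.967). Trav11d was at 0.967, 2.80, 0.804 and 0 CPM in BM-Treg and 0, 1.13, 4.62 and 1.52 CPM in SP-Treg (adjusted p = 0.791). Trav11, used by invariant NKT cells and outside the symbol rule, was at 4.12, 3.26, 4.47 and 1.68 CPM in BM-Treg and 3.04, 5.67, 0 and 1.74 CPM in SP-Treg (adjusted p = 0.832). The Trav11 and Trav11d copies share nearly all of their 80-base windows, and where Trav11 was listed at 0, in SP-Treg replicate 3, Trav11d had its highest value. Of markers of NK and NKT cells, Klrb1c, Ncr1 and Klre1 had 0 counts in all BM-Treg libraries. The 5 markers of that list summed to 7.79 to 12.5 CPM in BM-Treg and 9.76 to 23.0 CPM in SP-Treg, and the 2 MAIT markers to 58.0 to 71.9 and 23.6 to 104.5 CPM, nearly all of it from Il18r1. Their part in the V gene values was not tested.

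Gamma and delta chain genes were sparse. All gamma and delta genes together, without the alpha V genes that can also join to delta, summed to 3.68, 4.57, 19.1 and 4.36 CPM in BM-Treg replicates 1 to 4, and to 5.42, 7.03, 7.92 and 8.70 CPM in SP-Treg replicates 1 to 4. Apart from BM-Treg replicate 3, every BM-Treg library lay below every SP-Treg library. The high value came from Trdv1 (chr14:53881532-53882216), a delta V gene, which held 88.2% of the gamma and delta counts of that library. Trdv1 also held 84.0% of these counts in SP-Treg replicate 1, or 4.55 of its 5.42 CPM. The place of SP-Treg replicate 1 above BM-Treg replicates 1, 2 and 4 thus rested on the same gene.

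Trdv1 had 27, 47, 375 and 35 counts in BM-Treg replicates 1 to 4, and 63, 29, 18 and 15 counts in SP-Treg replicates 1 to 4. BM-Treg replicate 3 stood far above the other libraries, which overlapped. The log2 fold change was 1.29 (SE 0.86, adjusted p = 0.424), and 0.27 within batch 3. No 80-base window of Trdv1 occurred in another gene. Gamma V genes together had 0 to 4 counts in a library. Of the other delta V genes, Trdv2-1, Trdv2-2, Trdv4 and Trdv5 had at most 12 counts each, and Trgv2 had 2 counts in BM-Treg replicate 2, 3 counts in SP-Treg replicate 2 and 0 in the other libraries.

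The gamma constant genes, which the files list mostly under Tcrg symbols outside the rule, had 34, 40, 34 and 10 counts in BM-Treg replicates 1 to 4, and 10, 48, 73 and 95 counts in SP-Treg replicates 1 to 4. Per 100 counts of alpha and beta constant genes this was 0.135, 0.114, 0.0832 and 0.0451 in BM-Treg and 0.0568, 0.260, 0.411 and 0.466 in SP-Treg. SP-Treg replicate 1 lay among the BM-Treg libraries and the other SP-Treg libraries lay above them. Tcrg-C1, the only gamma constant gene tested, had a log2 fold change of -1.55 (SE 0.57, adjusted p = 0.111). Within batch 3 it was -1.83, with 4 counts in BM-Treg replicate 4. Tcrg-C2, Tcrg-C and Gm17356 had too few counts to be tested. Of the gamma delta T cell markers, Sox13 had 0 counts in BM-Treg and Cd163l1 was at 0.0116 and 0.759 CPM in BM-Treg and SP-Treg. The part of gamma delta T cells in these values was not tested.

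**Figure D5:**
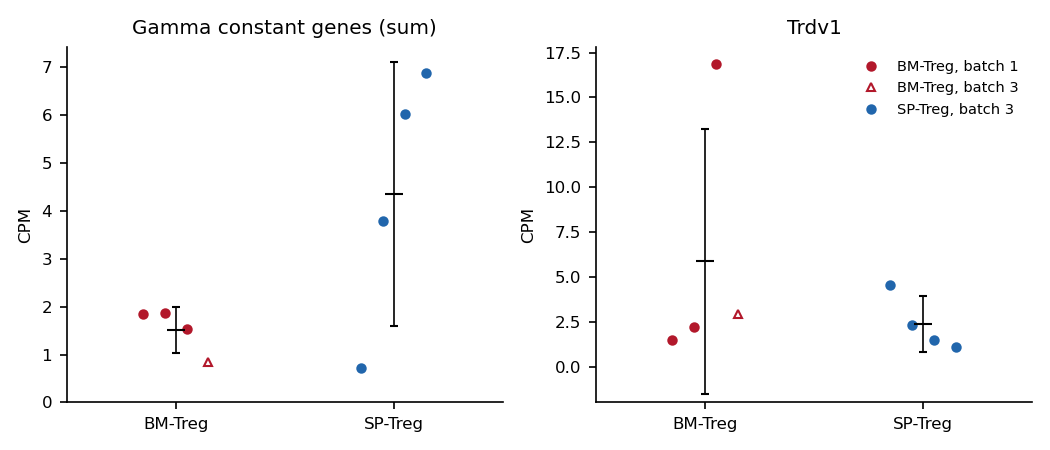
CPM (vertical axes) of the summed gamma constant genes (left) and of Trdv1 (right) in each library, with mean ± SD (n = 4 per tissue) and the batch 3 BM-Treg library as an open triangle. The gamma constant genes lie between 0.839 and 1.86 CPM in BM-Treg and between 0.723 and 6.89 CPM in SP-Treg, and Trdv1 is at 16.9 CPM in BM-Treg replicate 3.

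The other genes of the receptor complex were compared from a list. The CD3 complex carries the signal of the receptor into the cell, and 0 of its 4 genes changed. The log2 fold changes were -0.27 for Cd3d (adjusted p = 0.17), -0.12 for Cd3e, -0.12 for Cd3g and -0.07 for Cd247. Cd3e was at 1018 ± 177 FPKM in BM-Treg against 1064 ± 94.2 FPKM in SP-Treg (SD, n = 4), below the beta constant genes on the same scale.

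Of the coreceptors, Cd4 averaged 876 ± 110.5 CPM (SD, n = 4) over BM-Treg and 775 ± 78.8 over SP-Treg (log2 fold change 0.16, adjusted p = 0.453). Cd8a, which marks cytotoxic T cells and some dendritic cells, fell in BM-Treg. It was at 0.920, 1.72, 0.901 and 0.839 CPM in BM-Treg replicates 1 to 4, and at 1.81, 20.9, 6.52 and 5.95 CPM in SP-Treg replicates 1 to 4, with a log2 fold change of -2.99 (SE 0.69, adjusted p = 0.0293) and -2.79 within batch 3. Its partner Cd8b1 did not pass the test (log2 fold change -0.43, adjusted p = 0.21). Summed markers of B cells were at 2.35 to 4.73 CPM in BM-Treg and 2.24 to 69.0 CPM in SP-Treg, with the highest value in SP-Treg replicate 2, which also had the most Cd8a, and 0 of these 3 markers passed the test. Markers of lymphoid precursors summed to at most 1.08 and 1.45 CPM in these tissues, with Ptcra, the partner of the beta chain in thymocytes, at 0 in every library. Markers of plasmacytoid dendritic cells summed to 29.7 to 39.9 CPM in BM-Treg and 8.82 to 41.5 CPM in SP-Treg, nearly all from Ccr9, and those of neutrophils to at most 8.67 and 6.63 CPM. The part of other cells in the receptor values was not tested.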

How the data were processed

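RNA from FACS-sorted cells (15 ng per library) was amplified by the single primer isothermal method of NuGen, without molecular identifiers, and sequenced as single-end 80 nt reads. The authors deposited expected counts per gene, without normalization between libraries, and FPKM, which divide such counts by transcript length and library depth. The submitters' processing notes name cutadapt 1.9, STAR 2.5.2a, RSEM 1.2.30 and GRCm38. Reads shared by near copies were divided between them by estimation.

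The members, lists and tests were chosen with earlier results of these data known. Expected counts were rounded, filtered by edgeR's default on the groups (13397 genes kept), normalized by TMM and tested with edgeR 4.0.16 (R 4.3.3, quasi-likelihood, robust, all 8 libraries, no covariate), with Benjamini-Hochberg adjustment over all genes. The paper describes 4 biological replicates per condition in its methods and 3 per tissue in a figure legend. Nothing in the labels says that libraries are separate animals, so p-values measure the spread between these samples. CPM values use TMM library sizes. Shares use unrounded counts, and Wilson intervals cover counting error only. Genes were named if constant, called, among the 6 largest mean shares or the 5 largest share differences of the alpha or beta family (of at least 0.5%), or as markers of NKT and MAIT cells. Exact permutation tests designed for summed values are not given, since members were chosen with results known. Windows of 80 bases were compared between GENCODE M21 transcripts. Of the 94 genes, 92 were in GENCODE M21, 20 with identical and 72 with overlapping coordinates, and 3 under another symbol. Alternatives were DESeq2 1.42.0, its size factors, limma 3.58.1 on log2(FPKM + pseudocount), no filter, a batch term, batch 3 alone, a replicate block, family sums, subgroups, and leaving out each library. GENCODE names by identifier were added after seeing the data, as was leaving out Trdv1. The edgeR test was tried on simulated data.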

Additional observations from a re-analysis of the deposited data

Results flagged for a closer look

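In 7 of 62 groups of 4 libraries, 1 library stood apart by Dixon's test at 95%, which chance does in about 1 in 20 groups. BM-Treg replicate 3 held the highest gamma and delta total, 19.1 CPM, through Trdv1 at 16.9 CPM, where the other BM-Treg libraries had 1.46 to 2.94 CPM. Beta V counts per 100 beta constant counts were low in BM-Treg replicate 4 (10.001) and in SP-Treg replicate 3 (10.98). Trbc1 was low in BM-Treg replicate 1, at 192 CPM. Of the shares of named V genes, Trav16n was low in BM-Treg replicate 3 (1.83% of alpha V counts) and Trbv15 in SP-Treg replicate 2 (6.02% of beta V counts).

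Over all V genes with a mean share of at least 0.5%, a library stood apart in 16 of 134 groups, or 11.9%. SP-Treg replicates 1 and 4 accounted for 4 each, BM-Treg replicate 3 for 3 and BM-Treg replicate 2 for 0. SP-Treg replicate 1 held 7.63% of its beta V counts on Trbv17, against 1.06% to 1.17% in the other SP-Treg libraries, and 3.82% of its alpha V counts on Trav6-2, against 0.243% to 0.405%. BM-Treg replicate 3 held 5.91% of its alpha V counts on Trav14-1, against 1.70% to 2.14% in the other BM-Treg libraries. SP-Treg replicate 4 held 2.15% of its beta V counts on Trbv30, against 0.0743% to 0.318%, and 3.24% of its alpha V counts on Trav5-4, against 0.610% to 0.915%.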

How the results depend on the processing

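Of 244 values under other settings, 208 were labelled the same as the main result, 16 weaker, 4 stronger, 16 moved and 0 reversed. Some differences nevertheless changed sign, such as the gamma and delta total, from 0.669 CPM to -3.07 CPM without BM-Treg replicate 3. A number of called genes close to the main number was also labelled the same. The 2 genes called became 4 with DESeq2 (Trbv20 and Trbv31 added), 6 and 6 with limma on log2(FPKM + 1) and log2(FPKM + 0.1), 1 with the family sum as library size, and 0 with a batch term, where 5 genes had an unadjusted p under 0.05. With a replicate block 1 gene, Trbv1, was called, and Trbv16 had a log2 fold change of 0.93 (edgeR adjusted p = 0.0637). Replicate numbers gave no sign of pairing: deviations of same-numbered libraries correlated at -0.11, 0.06, -0.18 and 0.04. Such values cannot show that the samples are unpaired, since most same-numbered libraries also differ in batch.

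Within batch 3, which rests on 1 BM-Treg library, the difference of BM-Treg from SP-Treg was 14.2 CPM for the beta V total, -11.6 for alpha V per 100 Trac counts, -1.62 for beta V per 100 beta constant counts and -0.923 for beta V distance. Over all libraries the differences of the beta V ratio and distance were positive, at 0.8287 and 3.02. Within batch 3 the V genes whose shares did not overlap numbered 12 alpha and 5 beta. With 1 library against 4, the CPM of 55.9% of all genes tested did not overlap. These counts therefore cannot be set beside the 1 and 3 over all libraries. Non-overlapping alpha V genes numbered 3 under GENCODE names and 0 as subgroups. By subgroups the effective number of alpha V genes differed by 0.884. The J-proximal share differed by 4.40 points on FPKM, and by 4.93 with the genes split at the midpoint of their order. The causes were not tested.

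Without 1 library at a time, the genes called numbered 1 to 3, with Trav5-4 added without SP-Treg replicate 4 and Trav6n-5 without SP-Treg replicate 3. The differences ranged from -0.870 to 0.714 for the Trbc1 share, -7.37 to -1.84 for alpha V per 100 Trac, 0.541 to 1.64 for beta V per 100 beta constant counts, 3.52 to 27.6 CPM for the alpha V total, 22.6 to 34.3 CPM for the beta V total and -3.07 to 2.09 CPM for gamma and delta, where, of the libraries, only leaving out BM-Treg replicate 3 gave a lower BM-Treg mean (without Trdv1 the difference was -2.85). They ranged from -1.54 to 1.22 and 1.78 to 3.77 for alpha and beta V distance, 2.48 to 4.77 and -0.146 to 0.522 for the effective numbers, and 3.96 to 5.98 for the J-proximal share. Non-overlapping genes numbered 1 to 5 (alpha) and 3 to 5 (beta), with the most in both families without SP-Treg replicate 3, while of all genes tested 18.7% to 21.4% did not overlap by CPM with a library left out, against 15.9% with all. Depth limits the V genes with few counts: 16 of the 94 genes were not tested.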
